A study of Mus musculus with 6 samples.

Results

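Interferon response genes are the transcripts that cells switch on when they sense viral nucleic acid or when interferon binds its receptors, and 31 of them were followed here in mouse embryonic stem cells. They were taken as a fixed list of transcription factors, RNA sensors, antiviral effectors, chemokines and antigen-processing genes, and every probe that the platform annotation assigns to a listed gene was included. The list covered 31 of the 19057 genes named on the array and 51 of its 45281 probes. The samples were 3 shChd9 cultures, which carried a pHYPER short hairpin RNA (shRNA) vector against Chd9, a chromodomain helicase that remodels nucleosomes, and 3 control cultures, whose label says only that they had a control transfection. All 6 were stem cells electroporated, kept under puromycin to remove cells without the vector, and grown with serum and leukemia inhibitory factor (LIF), which holds them undifferentiated. All 6 also shared a layer of mouse embryonic fibroblasts stopped from dividing with mitomycin C, called feeders, so every RNA sample could hold fibroblast transcripts. Each sample was hybridised once to an Illumina bead array. Whether the cultures were set up independently is not stated in the labels, so each p-value refers to the spread among these samples and that spread may be technical.

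The pathway begins with sensors. RIG-I (encoded by Ddx58) and MDA5 (Ifih1) recognise double-stranded RNA in the cytoplasm and signal for interferon, PKR (Eif2ak2) halts translation, and the oligoadenylate synthetases activate RNA decay. Secreted interferon then acts through its receptors and Jak kinases on a complex of STAT proteins with Irf9, which binds the interferon-stimulated response element in target promoters. Mouse embryonic stem cells are known for a weak interferon response, while fibroblasts respond strongly. A short hairpin is itself double-stranded RNA, which is why sensor and effector genes are commonly used to check for an unspecific response to a hairpin.

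The response element, searched as GAAA, a gap of 2 bases and GAAA on either strand, was found in 2.98% of the 32851 promoters in the RefSeq table (GRCm38.p6), counting the 250 bases before each start site. By gene it was found in 3.46% of 27025 genes and in 9 of the 24 listed genes that matched the table by symbol. Of the 18 matched genes measured well enough to test, 5 had a match, and of the 6 others 4 had one (Ifit1, Cxcl10, Rsad2 and Oas1a). The gamma-activated site, searched as TTCNNNGAA, was found in 8 of the 24, against 8.13% of all genes. The promoters below are those of the 4 tested members with a match that had the smallest p for following the feeder markers, as described further on. None of these 4 passed that test at an adjusted p under 0.05. They are shown because they carry the letters through which the pathway is known to act. Stat2, the other tested member with a match, had 1 and is not shown. Capitals mark the matches to the response element, and each sequence reads 5′ to 3′ along the gene's strand and ends at the base before the start site.
Ifit3, chr19:34583279-34583528, plus strand: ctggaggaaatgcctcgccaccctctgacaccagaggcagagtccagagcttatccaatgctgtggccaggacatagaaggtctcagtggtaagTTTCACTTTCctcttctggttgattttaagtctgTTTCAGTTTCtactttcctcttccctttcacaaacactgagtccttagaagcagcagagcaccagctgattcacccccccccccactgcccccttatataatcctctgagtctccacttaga
Igtp, chr11:58199306-58199555, plus strand: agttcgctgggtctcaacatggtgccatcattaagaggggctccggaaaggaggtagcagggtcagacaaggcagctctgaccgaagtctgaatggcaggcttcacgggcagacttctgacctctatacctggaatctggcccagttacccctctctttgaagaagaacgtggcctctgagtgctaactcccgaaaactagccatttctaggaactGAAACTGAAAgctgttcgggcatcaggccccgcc
Isg15, chr4:156200819-156201068, minus strand: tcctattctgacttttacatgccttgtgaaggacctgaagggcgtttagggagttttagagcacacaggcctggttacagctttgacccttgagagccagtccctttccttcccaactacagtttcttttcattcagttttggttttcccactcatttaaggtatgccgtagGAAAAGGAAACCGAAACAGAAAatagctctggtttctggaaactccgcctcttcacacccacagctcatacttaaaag
Bst2, chr8:71537473-71537722, minus strand: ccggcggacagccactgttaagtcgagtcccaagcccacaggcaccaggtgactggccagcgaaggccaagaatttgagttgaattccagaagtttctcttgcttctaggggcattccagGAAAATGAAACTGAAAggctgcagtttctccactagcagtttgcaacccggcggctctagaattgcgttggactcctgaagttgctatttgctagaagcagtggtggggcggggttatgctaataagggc
Isg15 had 3 matches, which overlap each other, with the nearest ending 56 bases before the start site. Ifit3 and Bst2 had 2 each, those of Bst2 overlapping each other and 1 of them a gamma-activated site. Igtp had 1, which ended 24 bases before the start. Oasl2, Psmb8 and Tap1, which stand out in the results below, had no match to the response element in this window. That says only that these letters are not in these bases. Psmb8 had 1 gamma-activated site there. Usp18, which also stands out below, was not among the 24 listed genes that matched the table, so its promoter was not searched.

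The arrays were alike in quality. Between 17734 and 18272 probes were detected on the shChd9 arrays and between 17981 and 18457 on the control arrays (detection p under 0.05), and pairwise correlations of the arrays over tested probes lay between 0.973 and 0.988 (Pearson r of log2 intensity). Chd9 itself was lower in shChd9 cells on its 2 well-detected probes. ILMN_1235114 measured 6.75, 6.37 and 6.41 on the shChd9 arrays, against 7.67, 7.54 and 7.65 on the control arrays (normalised log2 intensity). The shChd9 values all lay below the control values, 2.16-fold on average (limma, adjusted p = 0.540). ILMN_2697954 measured 6.56, 6.32 and 6.64 on the shChd9 arrays, against 7.36, 7.74 and 7.80 on the control arrays, and was 2.18-fold lower (adjusted p = 0.540). In the exact permutation test both probes had p = 0.10, the smallest that 3 against 3 arrays can give. A dim probe, ILMN_1226311, had a log2 fold change of 0.35 (adjusted p = 0.925), and ILMN_2600528 was detected on 1 array. The stem cell label was checked with 18 markers, of which 17 were tested, with means from 10.75 to 10.99 on the shChd9 arrays and from 10.79 to 11.03 on the control arrays.

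Of the 31 interferon response genes, 22 had a probe detected on at least 3 of the 6 arrays and were tested, through 29 of their 51 probes. Of the 51, 21 were detected on all 6 arrays and 15 on none. Where a gene had several tested probes (Irf1, Irf9, Dhx58, Oasl1 and Usp18) the brightest stood for it. Probes of the Oas and Ifit families may also bind transcripts of close relatives. The 9 others included several genes that interferon induces most strongly in other cells. Ifit1, which blocks translation of viral RNA, Isg20, an exonuclease, Rsad2, which encodes the antiviral enzyme viperin, Cxcl10, a chemokine that draws T cells, the sensor Ifih1 and the synthetase gene Oas1b were detected on 0 of 6 arrays. Oas1a was detected on 1 shChd9 and 1 control array, and Mx1 and Mx2, dynamin-like antiviral GTPases, on 1 shChd9 array each. For Mx1 that array was shChd9 replicate 3, at 5.38, against 4.30 and 4.30 on the other shChd9 arrays and 4.39, 4.41 and 4.61 on the control arrays (log2 intensity). For Mx2 it was shChd9 replicate 1, at 5.09, against 4.53 and 4.59 on the other shChd9 arrays and 4.60, 4.73 and 4.74 on the control arrays. These 3 genes stood near background in both groups. A probe that is not detected gives only an upper limit to a transcript, and no fold change is given for these 9 genes.

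**Figure D1:**
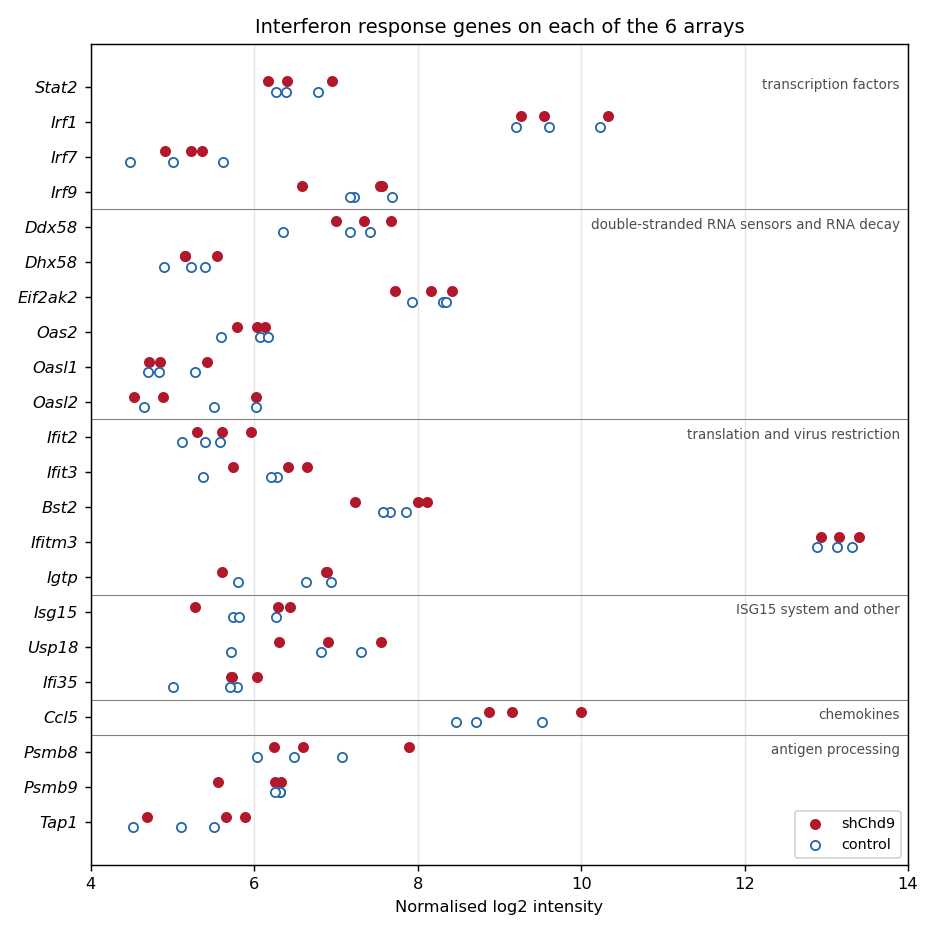
Normalised log2 intensity (horizontal axis) of the 22 tested interferon response genes on the 3 shChd9 arrays (filled points) and the 3 control arrays (open points), grouped by role. In every gene the filled and open points overlap. Positions are to be compared within a gene only, since probes differ in brightness.

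No interferon response gene passed the test for a difference between shChd9 and control cells. The test treated the samples as unmatched, since the labels give no pairs. In deposit order several members, Ccl5 and Tap1 among them, rose and fell alike in both groups, and the SE used here includes that spread. Whether samples of the same number belong together was not tested. What the control transfection carried is not stated, so a response to a hairpin or vector common to both groups would not show in this comparison. In limma's test 0 of the 22 passed at an adjusted p under 0.05 over all 10194 genes, where the share of all genes called was 0%, and 0 of the 22 had an unadjusted p under 0.05, against 5.42% of all genes. The same held for 0 of their 29 tested probes at an unadjusted p under 0.05, against 5.32% of all tested probes. The groups overlapped in all 22 genes tested, while they did not overlap in 10.5% of all genes. The log2 fold change of shChd9 over control was above 0 in 17 of the 22, against 49.1% of all genes, and its median was 0.07 over the members and 0.00 over all genes. The 95% interval lay within 2-fold in either direction for 16 of the 22, against 92.9% of all genes, and the median SE was 0.28 for the members and 0.18 for all genes. A 2-fold change was inside the interval for Ddx58, Usp18, Ccl5, Psmb8 and Tap1 as an increase in shChd9 cells, and for Oasl2 as a decrease.

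Among the sensors of double-stranded RNA, the genes closest to the hairpin itself, no log2 fold change was further from 0 than that of Ddx58. Ddx58, the RIG-I gene, measured 7.67, 7.34 and 7.01 on the shChd9 arrays, against 7.42, 7.17 and 6.35 on the control arrays. The highest shChd9 value lay above the control range and the other two within it, with a log2 fold change of 0.36 ± 0.29 (SE, n = 3 each, limma, adjusted p = 0.928). Eif2ak2, which encodes PKR, measured 8.42, 8.16 and 7.72 in shChd9 cells, against 8.32, 8.34 and 7.93 in control cells. Its interval from -0.58 to 0.39 on the log2 scale covers both directions (-0.10 ± 0.21). Dhx58, the sensor LGP2, measured 5.15, 5.15 and 5.54 in shChd9 cells, against 5.22, 5.39 and 4.89 in control cells. These groups overlapped, with a log2 fold change of 0.11 ± 0.19.

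The oligoadenylate synthetase family gave log2 fold changes of either sign, none past the test. Oas2 measured 6.13, 6.04 and 5.78 in shChd9 cells, against 5.59, 6.07 and 6.17 in control cells (log2 fold change 0.04 ± 0.19, SE). Oasl1, an inactive relative of the synthetases, measured 4.85, 5.43 and 4.71 in shChd9 cells, against 5.28, 4.70 and 4.84 in control cells, and was detected on 2 shChd9 arrays and 1 control array (0.06 ± 0.23). Its second tested probe, ILMN_2717366, had a log2 fold change of -0.33 ± 0.29, so the 2 probes differ in sign. Oasl2 measured 6.02, 4.53 and 4.89 in shChd9 cells, against 6.02, 4.65 and 5.51 in control cells. Replicate 1 was the highest of each group, at the same level, and the log2 fold change was -0.24 ± 0.43, the widest SE of the 22 genes. In the exact two-sided permutation test of 3 against 3 arrays, which cannot go below p = 0.10, these 6 tested sensor and synthetase genes had p between 0.50 and 0.90.

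The remaining genes with the smallest p in this comparison came from several roles. Ifi35, an interferon-induced leucine zipper protein, measured 6.03, 5.72 and 5.72 in shChd9 cells, against 5.79, 5.00 and 5.70 in control cells, with a log2 fold change of 0.32 ± 0.23 (SE, limma, adjusted p = 0.917). Control replicate 2 lay below the other arrays. Ccl5, a chemokine that draws leukocytes, measured 10.00, 8.87 and 9.16 in shChd9 cells, against 9.52, 8.47 and 8.71 in control cells (0.45 ± 0.34, adjusted p = 0.925). Ifit2, which like Ifit1 acts on translation, measured 5.60, 5.30 and 5.96 in shChd9 cells, against 5.40, 5.11 and 5.58 in control cells (0.25 ± 0.21, adjusted p = 0.928). For Ccl5 control replicate 1 lay within the shChd9 range and the other control arrays below it, and for Ifit2 only control replicate 2 lay below it. Psmb9, a subunit of the immunoproteasome, measured 6.26, 5.56 and 6.33 in shChd9 cells, against 6.31, 6.31 and 6.25 in control cells (-0.24 ± 0.21, adjusted p = 0.928), so that shChd9 replicate 2 alone stood apart. Tap1, which carries peptides into the endoplasmic reticulum, measured 5.89, 4.69 and 5.66 in shChd9 cells, against 5.51, 4.51 and 5.10 in control cells (0.37 ± 0.34, adjusted p = 0.929). When the fit also held the mean of the feeder markers described next, the median log2 fold change of the 22 was -0.12 and again 0 passed. The log2 fold change of Oasl2 in that fit was -0.80, its unadjusted p was 0.00194, the smallest of any member under any alternative run, and its adjusted p was 0.904 (limma).

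**Figure D2:**
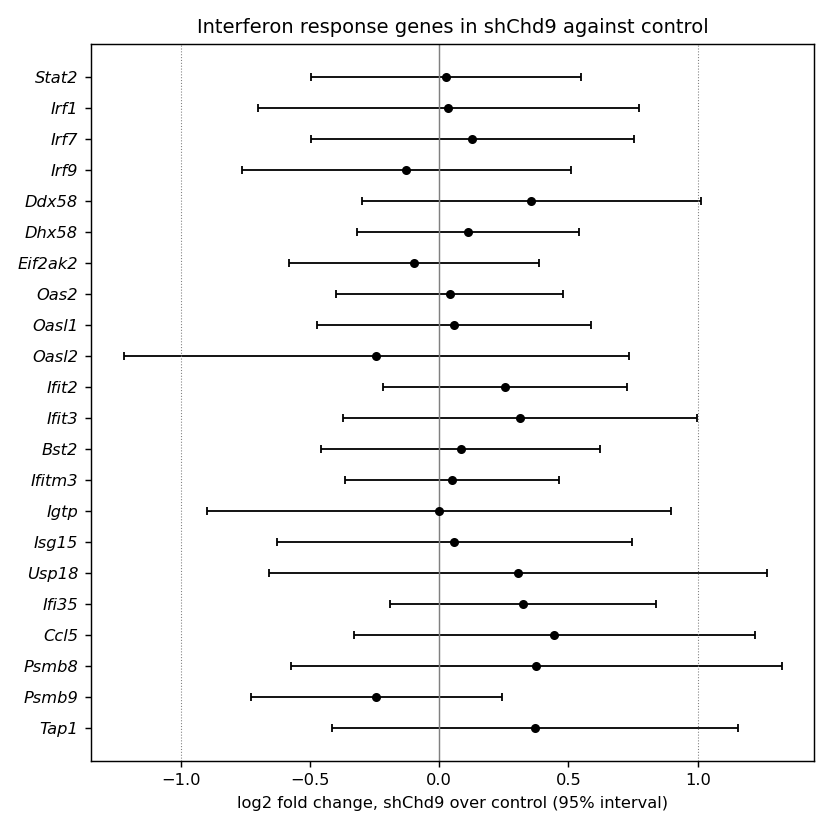
Log2 fold change of shChd9 over control for each of the 22 tested interferon response genes (points), with 95% intervals from limma (bars, 3 arrays per group); dotted lines mark 2-fold in either direction. Every interval contains 0.

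The members varied between cultures of the same group. Their median SD over the 6 arrays was 0.40 on the log2 scale, against 0.23 for all genes, and the median range 1.11 against 0.60. The mean of the 22 members on each array was 7.21, 6.51 and 6.89 in shChd9 cells and 7.05, 6.48 and 6.73 in control cells. The average of the fibroblast markers varied in the same way. The mean of 28 tested markers, such as collagens and other matrix genes, was 9.22, 8.13 and 8.68 on the shChd9 arrays and 8.73, 7.76 and 8.34 on the control arrays. Both means thus placed the 6 arrays in the same order, with shChd9 replicate 1 highest and control replicate 2 lowest. The median of the markers placed shChd9 replicate 3 highest, at 9.55, before shChd9 replicate 1, at 9.44. Single markers did not all keep the order of the mean. Fn1 was lowest on control replicate 1, at 10.10, and Acta2 was highest on shChd9 replicate 2, at 11.75. All 28 fibroblast markers had a log2 fold change above 0, with a median of 0.41. A higher marker mean can come from more feeder cells in the sample or from more marker RNA per cell, and bulk RNA cannot tell these apart.

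Members were set against the feeder markers across the arrays. A slope was fitted for each gene on the marker mean, with the group as a second term. A slope of 1 means that the gene changed by the same fold as the average marker. The slope was above 0 in 19 of the 22 members, against 47.7% of the 10166 genes outside the marker list, and the median slope was 0.58 for the members and -0.01 for all genes. Usp18, Oasl2, Psmb8 and Tap1 rose with the markers at an adjusted p under 0.05 (limma), 4 of 22 against 0.836% of all genes, and 0 members fell, against 0.0393%. Oasl2 and Tap1 were detected on only 2 arrays of each group. Both were lowest on replicate 2 of each group, where the marker mean was also lowest. They entered the test through arrays with higher marker means, which favours an upward slope. A filter for detection on all 6 arrays leaves both out, so the 4 calls include 2 that the filter used here favours. At an unadjusted p under 0.05, 13 of the 22 rose, against 7.93% of all genes, and 0 fell, against 5.06%. Probe by probe, 3 of the 29 rose at an adjusted p under 0.05, against 0.649% of all tested probes, Tap1 no longer being among them (0.0572). All 4 calls were lost (0 of the tested members called) without control replicate 1, without control replicate 2, without shChd9 replicate 1 or without shChd9 replicate 2, while the median slope stayed between 0.51 and 0.68 with any 1 array left out. With the median of the markers in place of their mean, 0 genes of the whole array were called and the median member slope was 0.33.

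Usp18, the protease that removes Isg15 from proteins and dampens receptor signalling, had the smallest slope p of the members. It measured 7.55, 6.30 and 6.90 on the shChd9 arrays, against 7.30, 5.71 and 6.81 on the control arrays. The lowest and highest of these differ by 3.57-fold, and within both groups replicate 1 was highest and replicate 2 lowest, as for the markers. The slope was 1.37 ± 0.19 (SE, limma, adjusted p = 0.0165). Over the 6 arrays r was 0.96 and rho 1.00, with an exact two-sided permutation p of 0.00278 for each, an adjusted p of 0.192 for r, and r = 0.91 without shChd9 replicate 1 and control replicate 2, the arrays farthest from the median of the marker mean. A second, dim probe of Usp18, detected on 3 arrays, had a slope of 0.14 ± 0.27, and with the mean of both probes the gene was no longer called (adjusted p = 0.109).

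Psmb8, the immunoproteasome subunit also called LMP7, measured 7.89, 6.24 and 6.59 on the shChd9 arrays, against 7.07, 6.04 and 6.49 on the control arrays, a 3.61-fold range. Its slope was 1.30 ± 0.22 (adjusted p = 0.0449, limma), with r = 0.94 and rho = 1.00 over the 6 arrays (exact permutation p = 0.00139 and 0.00278, adjusted p = 0.192 for r) and r = 0.87 without the farthest arrays. Tap1, whose values stand above, had a slope of 1.07 ± 0.19 (adjusted p = 0.0466), with r = 0.97 (exact permutation p = 0.00278, adjusted p = 0.192) and r = 0.97 without those arrays. It was detected on 2 arrays of each group, so its lower values lie near background. Both genes feed peptides to class I molecules of the major histocompatibility complex.

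Oasl2 gave the steepest slope of the members, 1.39 ± 0.19 (adjusted p = 0.0173, limma), but the plain correlation over the 6 arrays was weaker, with r = 0.78 (exact permutation p = 0.0736) and r = 0.60 without the farthest arrays. Without the group term its adjusted p was 0.132. Its order matched that of the markers within each group, but shChd9 replicate 3, at 4.89, lay below control replicate 3, at 5.51, on an array with a higher marker mean. Like Tap1 it was detected on 2 arrays of each group.

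Ccl5 and Ifit3 followed next without passing. Ccl5, whose values are given above, had a slope of 1.03 ± 0.20 (adjusted p = 0.0685, limma), with r = 0.95 (exact permutation p = 0.00694) and r = 0.82 without the farthest arrays. Ifit3 measured 6.65, 5.74 and 6.41 on the shChd9 arrays, against 6.27, 5.38 and 6.21 on the control arrays. Its slope was 0.89 ± 0.19 (adjusted p = 0.0825), with r = 0.96 (exact permutation p = 0.00278) and r = 0.88 without those arrays. Both genes were highest on shChd9 replicate 1 and lowest on control replicate 2.

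**Figure D3:**
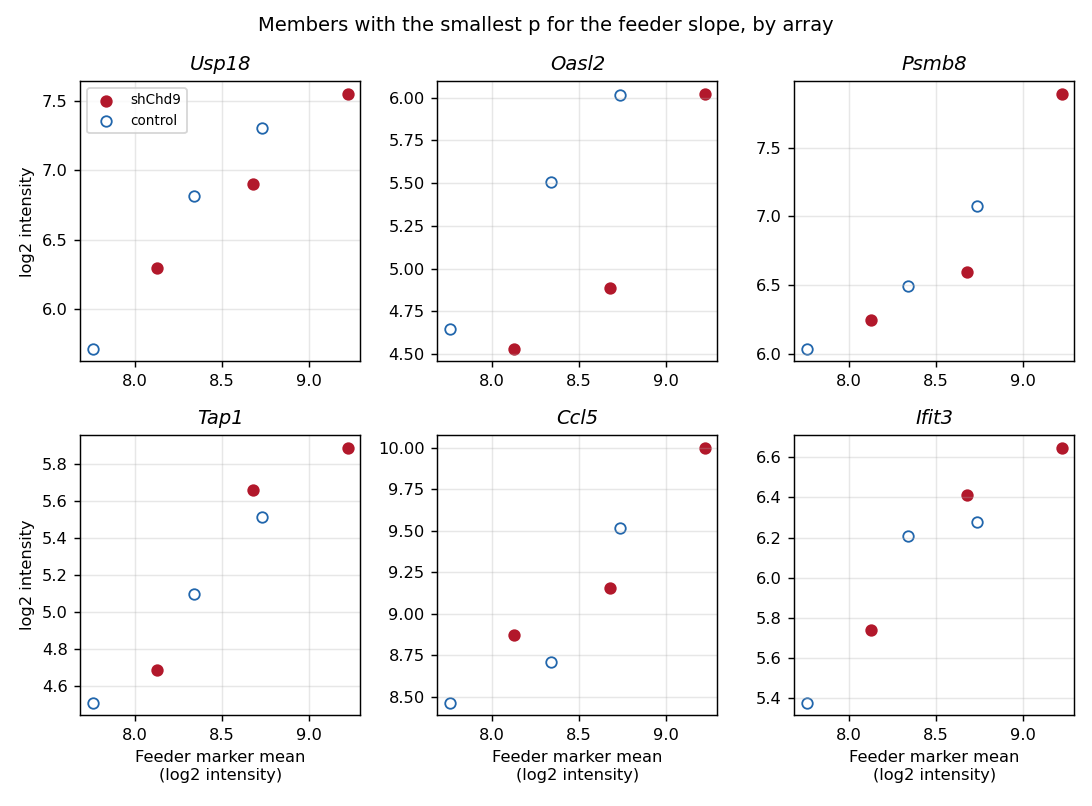
Log2 intensity of the 6 members with the smallest p for the feeder slope (vertical axes, differing between panels) against the mean log2 intensity of 28 feeder fibroblast markers (horizontal axes), with 1 point per array, filled for shChd9 and open for control. In each panel shChd9 replicate 1, at a marker mean of 9.22, is the highest point.

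Over the whole list, 6 of the 22 members had r above 0.9 with the marker mean, against 3.59% of all genes, and 12 had r above 0.7, against 12.2%. The median r was 0.75 for the members and -0.06 for all genes. In 9 of the 22 the arrays stood in the order of the markers within both groups, against 5.54% of all genes. Of the 10166 genes tested, 0 passed an adjusted exact p under 0.05, so no single correlation passes that adjustment. The 6 points share their arrays and their normalization. The marker mean had r = -0.17 with the mean raw intensity of the array (exact permutation p = 0.740), r = -0.35 with the number of detected probes (p = 0.479, exact) and r = -0.73 with the mean of the stem cell markers (p = 0.101, exact).

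Slopes varied with the members' roles, a difference that was not tested. Of the 6 tested sensor and synthetase genes only Oasl2 passed, and their median slope was 0.03. Eif2ak2 had a slope of 0.10 ± 0.25, Ddx58 0.22 ± 0.33, Dhx58 -0.10 ± 0.22, Oas2 -0.15 ± 0.22 and Oasl1 -0.04 ± 0.28 (SE). The second tested probes of Dhx58 and Oasl1 gave 0.47 ± 0.25 and 0.74 ± 0.23, so the sign for these genes depends on the probe. All 3 antigen-processing genes had a positive slope with a median of 1.07, although Psmb9, at 0.35 ± 0.22, did not pass. The 4 transcription factor genes also had positive slopes, with a median of 0.66. Irf7, which drives later interferon production, had 0.74 ± 0.21 (adjusted p = 0.176), Irf9 0.69 ± 0.23 (0.252), Irf1, an activator of antigen presentation, 0.63 ± 0.32 (0.465) and Stat2, the partner of Irf9, 0.20 ± 0.27 (0.819, each by limma).

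Among the antiviral effectors, none passed and all 5 tested had positive slopes. Igtp, a GTPase that acts on parasite vacuoles in mice, had 1.07 ± 0.30 (adjusted p = 0.173, limma), and its values ran from 5.60 to 6.90 on the shChd9 arrays and from 5.80 to 6.94 on the control arrays. Bst2, also called tetherin, which holds budding virus at the cell surface, had 0.52 ± 0.22, Ifitm3, which blocks virus entry from endosomes, 0.43 ± 0.16, and Ifit2 0.30 ± 0.23. Ifitm3 varied by 1.43-fold over the 6 arrays, and its rank order matched the markers in full (rho = 1.00, exact permutation p = 0.00278, adjusted p = 0.243). Isg15, the ubiquitin-like modifier, had a slope of 0.81 ± 0.23 (adjusted p = 0.175), with values from 5.27 to 6.43 on the shChd9 arrays and from 5.74 to 6.26 on the control arrays. Ifi35 had 0.53 ± 0.20 (adjusted p = 0.305). Isg15, Ifit3, Igtp and Bst2 are the genes whose promoters are printed above.

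**Figure D4:**
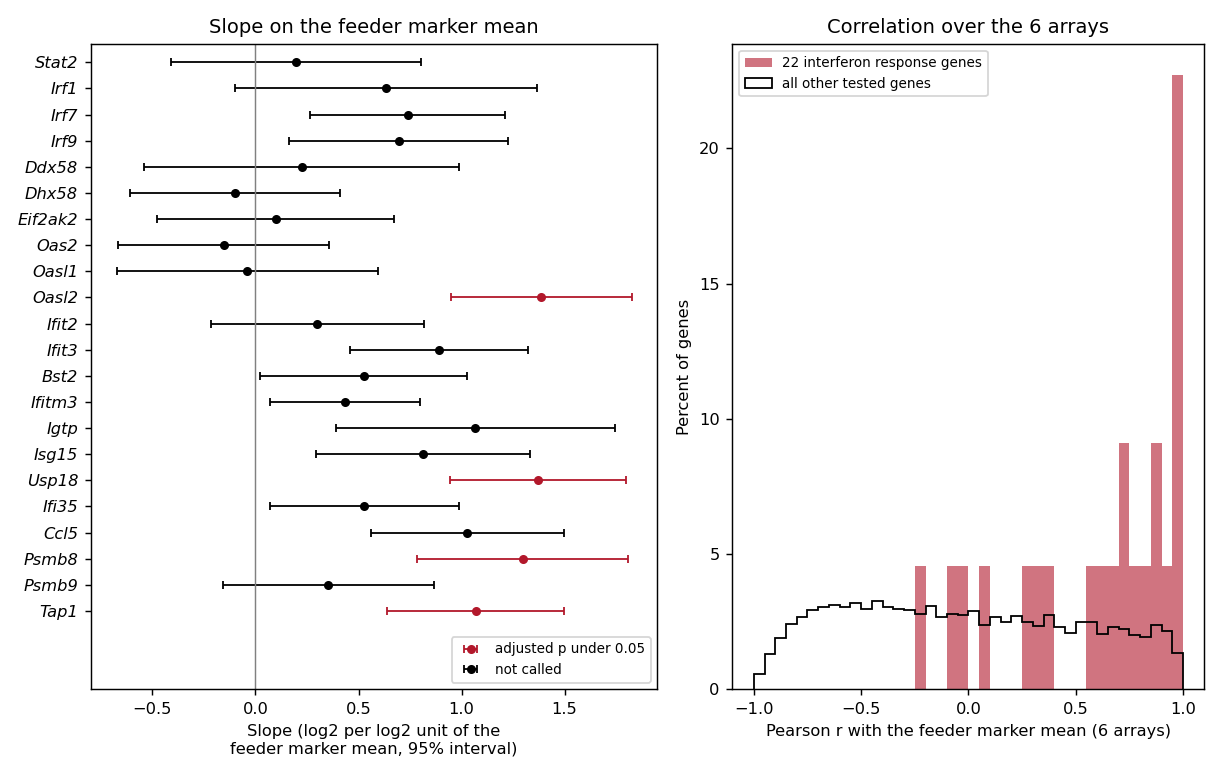
Left, slope of each of the 22 tested members on the feeder marker mean (points) with 95% intervals (bars), in log2 units per log2 unit, red where limma's adjusted p was under 0.05 (Usp18, Oasl2, Psmb8 and Tap1). Right, the distribution of Pearson r with the marker mean over the 6 arrays, as a percent of genes, for the members (red bars) and all other tested genes (black line), with a median of 0.75 for the members.

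Other genes of the pathway were read in the same fits. Their slope calls rest on the same arrays as those above: 89 genes of the whole array were called, but leaving out shChd9 replicate 1 gave 5, shChd9 replicate 2 gave 2, and control replicate 1 or control replicate 2 gave 1 each. For shChd9 over control, 0 genes of any of the 5 lists passed (limma, 0% of all genes). For the slope, 2 of 9 tested antigen presentation genes rose, against 0.836% of all genes, and all 9 had a positive slope with a median of 0.60. H2-K1, a class I heavy chain, measured 8.36, 6.33 and 7.76 on the shChd9 arrays, against 7.71, 6.45 and 7.15 on the control arrays, with a slope of 1.60 ± 0.22 (SE, adjusted p = 0.0165). B2m, the class I light chain, had 1.15 ± 0.20 (adjusted p = 0.0406). H2-D1, a second heavy chain, had 1.38 ± 0.29 (adjusted p = 0.0860), and heavy chain probes can share target sequence among related genes. The peptide carrier subunit Tap2 had a log2 fold change of 0.25 ± 0.24.

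Of 16 tested other interferon-induced genes, 14 had a positive slope, against 47.7% of all genes. Of the 16, 2 passed, against 0.836% of all genes, and the median was 0.42. Lgals3bp, a secreted glycoprotein, had 1.47 ± 0.21 (adjusted p = 0.0229, limma) and the GTPase gene Irgm2 1.01 ± 0.17 (adjusted p = 0.0364), while Gbp2, a guanylate-binding protein, had 1.39 ± 0.27 (adjusted p = 0.0659). Ifitm2 and Trim21 gave log2 fold changes of -0.26 ± 0.14 and -0.25 ± 0.18 for shChd9 over control, where Lgals3bp gave 0.68 ± 0.46. These did not pass.

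Receptors and signalling genes were mixed. Of 11 tested receptor and Jak-Stat genes, 7 had a positive slope with a median of 0.02, against 47.7% of all genes above 0. Of the 11, 1 passed, against 0.836% of all genes. It was Irf2, a relative of Irf1, with 1.44 ± 0.24 (adjusted p = 0.0406, limma). Il10rb, a receptor chain, had 0.60 ± 0.20, the kinase gene Jak2 0.47 ± 0.21 and Jak1 -0.36 ± 0.19. For shChd9 over control, the phosphatase gene Ptpn6 had a log2 fold change of -0.47 ± 0.20, Il10rb 0.36 ± 0.24 and Jak1 -0.27 ± 0.19. Of 14 sensing and adaptor genes, 9 had a positive slope with a median of 0.07, against the same 47.7%. Of the 14, 1 passed, against the same 0.836%. It was the kinase gene Ikbke, with 1.27 ± 0.22 (adjusted p = 0.0466). The adaptors Myd88 and Ticam1 had 0.52 ± 0.20 and 0.64 ± 0.24. The DNA sensor Aim2 had a log2 fold change of -0.53 ± 0.21, the NF-kappaB subunit Rela 0.42 ± 0.19 and the RIG-I adaptor Mavs -0.26 ± 0.14, with adjusted p between 0.886 and 0.917.

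Few interferon transcripts were detected. Of 10 ligand genes on the array, Ifnb1, Ifng, Ifna5, Ifnk and Ifnl3 were detected on 0 of 6 arrays, and Ifna2, Ifna4 and Ifne on 1 each. The 2 tested ligands were Ifnab and Ifna1. Ifnab measured 6.78, 7.26 and 7.27 on the shChd9 arrays, against 6.70, 7.004 and 7.006 on the control arrays (log2 fold change 0.20 ± 0.18, slope -0.37 ± 0.18). Ifna1 was not detected on any shChd9 array and was detected on 3 control arrays, at 5.13, 5.22 and 5.32. It entered the test only through the control group, which favours a lower value in shChd9 cells. For this reason no fold change between the groups is given for Ifna1. Its slope on the marker mean was -0.11 ± 0.17. Alpha interferon genes are close copies of each other, so the gene behind this probe is uncertain.

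Leukocytes and endothelium also express these genes. Of 13 leukocyte markers on the array 5 were tested, and Ptprc, Tyrobp, Fcer1g and Ctss were detected on 0 of 6 arrays. The summed intensity of the 5 ranged from 3766 to 4154 on the shChd9 arrays and from 2886 to 4234 on the control arrays, and 2 of the 5 had a positive feeder slope. Laptm5, the brightest of them, measured 11.79, 11.94 and 11.84 on the shChd9 arrays, against 11.36, 11.62 and 11.96 on the control arrays (log2 intensity). The groups overlapped for Laptm5, Cd14 and Cd52, and did not for Coro1a and Aif1, 2 of 5 against 10.5% of all genes. Coro1a measured 6.58, 7.15 and 6.90 on the shChd9 arrays, all below the 7.29, 7.79 and 7.39 on the control arrays. Aif1 measured 4.95, 5.04 and 5.21 on the shChd9 arrays, all above the 4.60, 4.70 and 4.49 on the control arrays. Of 10 endothelial markers 6 were tested. Among these 6, 2 had a log2 fold change of shChd9 over control above 0, and the median was -0.09. Esam measured 8.25, 8.16 and 8.01 on the shChd9 arrays, all above the 7.49, 7.70 and 7.39 on the control arrays. Its log2 fold change was 0.61, while that of Vwf was -0.63. Cdh5, Emcn and Tie1 were detected on 0 of 6 arrays, and the sums ranged from 749 to 766 on the shChd9 arrays and from 645 to 747 on the control arrays. The feeder marker sums ranged from 19851 to 37268 on the shChd9 arrays and from 15677 to 27167 on the control arrays, with Postn detected on 0 of 6 arrays, and the stem cell marker sums from 91780 to 96660 on the shChd9 arrays and from 89789 to 96165 on the control arrays, with Nr0b1 detected on 0 of 6. Of the 17 tested stem cell markers 5 had a positive feeder slope and 0 passed. Whether the interferon response genes that rise with the markers were transcribed in the feeders or in the stem cells was not tested.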

How the data were processed

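RNA from 3 shChd9 and 3 control samples was measured on 1 array each, grouped by the transfection in the labels and numbered in deposit order. Per the file headers, each probe has an intensity and a detection p-value per array in the table the authors deposited without normalization. The submitters' processing notes name GenomeStudio, its settings not being given in the sources used here. The authors' deposited series table holds intensities equal, within 1.59 units, to the raw values quantile normalized, on a linear scale without centring. Its column medians were 111.377, 111.385 and 111.368 for shChd9 and 111.400, 111.389 and 111.397 for control.

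The intensities then went through neqc of limma 3.58.1 (R 4.3.3), which inferred the background from detection p-values, with an offset of 16, quantile normalization and log2. Probes with a detection p under 0.05 on at least 3 of 6 arrays were tested (17719). Each of 10194 genes was represented by its brightest tested probe. Names came from GEO's platform table updated by Entrez identifier with RefSeq (34885 probes with 1 symbol, 18 with several, 10378 with none). Both the group difference and the feeder slope came from limma's lmFit and eBayes with two-sided p-values, Benjamini-Hochberg adjusted over all genes (for slopes the 10166 outside the marker list). Correlations used all 720 pairings of arrays.

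Members named in the text with values on every array are the 6 with the smallest p in each fit and the tested RNA sensors. Values are also given for Mx1 and Mx2, untested members that were each detected on 1 shChd9 array only. From each other list up to 3 genes per fit are named. Of 198 listed genes 187 matched the array. The members and lists were chosen with earlier results of these data known. Both fits were tested on simulated data with changes added to some genes. The group fit called 40% of 2-fold changes and 88% of 3-fold changes at an adjusted p under 0.05. The slope fit called 12% of slopes of 2-fold per log2 unit of the marker mean and 58% of those of 3-fold. A 2-fold change could thus often be missed. The number of arrays limits the precision. Alternatives were other background corrections, scalings, filters and probe summaries, each array left out, and other covariates.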

Additional observations from a re-analysis of the deposited data

How the results depend on the processing

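For shChd9 over control, 0 genes and 0 members were called under every alternative run. The median member log2 fold change lay between -0.03 and 0.30 with 1 array left out, and members near 0 changed sign. Igtp was 0.0101 without background correction and in the deposited series table and 0.00952 with normexp without controls, and Ifitm3 -0.0365 under median scaling. With the mean of a gene's probes Irf1 was -0.0268, Irf9 0.0810 and Oasl1 -0.14. With the mean of the markers added to the fit Stat2 was -0.0516, Irf1 -0.22, Irf7 -0.17, Ifit3 -0.0428, Bst2 -0.13, Ifitm3 -0.12, Isg15 -0.27, Usp18 -0.24, Psmb8 -0.14 and Tap1 -0.0564. With 1 array left out the log2 fold change ranged from -0.0811 to 0.36 for Bst2, -0.0276 to 0.23 for Dhx58, -0.26 to 0.10 for Eif2ak2, -0.0694 to 0.17 for Ifitm3, -0.34 to 0.42 for Igtp, -0.27 to 0.31 for Irf1, -0.15 to 0.42 for Irf7, -0.29 to 0.19 for Irf9, -0.16 to 0.42 for Isg15, -0.14 to 0.15 for Oas2, -0.20 to 0.20 for Oasl1, -0.67 to 0.0708 for Oasl2, -0.12 to 0.70 for Psmb8, -0.39 to 0.000847 for Psmb9, -0.19 to 0.19 for Stat2 and -0.15 to 0.65 for Usp18. For the feeder slope, genes called numbered 89 in the fit reported, 233 without background correction and in the deposited series table, 282 with normexp without controls, 201 without the group term, 0 with the median of the markers and 1 to 113 with 1 array left out. Members called were 4 in the fit reported, 2 without a filter on dim probes, 2 with the mean of a gene's probes, 0 with the median of the markers and 0 to 4 with 1 array left out. Slopes of Usp18, Oasl2, Psmb8 and Tap1 were positive under every alternative that tested them. Slopes changed sign for Dhx58 (0.19) and Oasl1 (0.38) with the mean of the probes and for Ddx58 (-0.0863) and Eif2ak2 (-0.11) with the median of the markers. With 1 array left out slopes ranged from -0.0820 to 0.58 for Ddx58, -0.34 to 0.10 for Dhx58, -0.25 to 0.32 for Eif2ak2, -0.44 to 0.10 for Oas2, -0.35 to 0.92 for Oasl1, -0.0337 to 0.59 for Psmb9 and -0.10 to 0.47 for Stat2. The causes were not tested. The labels give the samples no shared replicate numbers, so no paired analysis was run. The numbers used here follow deposit order in each group. By that order the feeder marker means were 9.22, 8.13 and 8.68 for shChd9 and 8.73, 7.76 and 8.34 for control. Whether samples of the same number were handled together is not stated and was not tested. Signal over background limits the dim genes, Oasl1, Oasl2 and Tap1 among them.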
